A study of Arabidopsis thaliana with 36 samples.

Results

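GI (AT1G22770), CDF5 (AT1G69570) and COR28 (AT4G33980) are 3 genes of the circadian clock and of day-length timing. They were followed through the day in the shoots and roots of unstressed Arabidopsis thaliana plants. The 3 genes were chosen with earlier results of these data known, so their p-values and their ranks among probe sets do not rest on an independent choice. Each had 1 probe set among the 22746 non-control probe sets of the ATH1 array, and all 3 were among the 15091 probe sets with enough signal to be tested. The plants were of the wild-type accession Col-0, grown on Murashige and Skoog medium with 16 h of light a day, at 24 °C and a humidity of 50%, and all groups shared these conditions. They served as controls of a stress series: they were moved and handled like treated plants and received no stress, with shoots and roots harvested separately. It was day 16, and the plants had been in the light for 3 h, when the first samples were taken, and sampling times were 0, 0.25, 0.5, 1, 3, 4, 6, 12 and 24 h. These times give 18 groups of 2 arrays. The 12 h samples were thus taken 15 h after lights on, near the end of the light period, and the 24 h samples at the clock hour of the 0 h samples on the next day. No sample lies between 12 and 24 h, so the night is not covered. None lies between 6 and 12 h either, so a peak within that gap would not be seen and a highest time of 6 h is the highest sampled one.

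GI encodes a large nuclear and cytosolic protein that works at the output of the circadian clock. In blue light the GI protein binds the F-box protein FKF1, and the pair marks the CDF proteins for degradation. The CDF proteins are DOF-type transcription factors, CDF5 among them, that repress CONSTANS and so delay flowering; their removal in the afternoon of a long day allows CONSTANS and then FT to be transcribed. COR28 and its relative COR27 are small proteins induced by cold and controlled by the clock, which act on evening-phased clock genes and on the response to light. Transcripts of GI are known to peak late in the day, those of the CDF genes early, and those of COR28 in the afternoon and evening.

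The values are array signals, scaled by the authors so that the mean of each array without its extreme 2% at either end is 100. Changes are differences of log2(signal + 10) with their standard error (SE), tested with limma over all 15091 probe sets at an adjusted p of 0.05 (Benjamini-Hochberg, 2-sided). Nothing in the labels says that the 2 arrays of a group stem from different plants, so every p-value reflects only the spread between these samples, which could be purely technical, and the small number of arrays limits the precision of every value. Between the arrays of a pair, the correlation over probe sets was 0.971 to 0.992. Across the shoot arrays the median of 5 photosynthesis markers was 3872 to 5392, compared with 20.4 to 46.5 in roots. For 3 root markers the median was 42.3 to 89.9 in roots, compared with 13.4 to 26.2 in shoots, and the sum 3201 to 4148 compared with 464 to 2027. In whole organs, fewer cells of a type and less RNA per cell cannot be told apart.

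In shoots GI rose up to 6 h, which was 9 h after lights on, and had fallen back by 12 h, near the end of the light period. The 2 arrays read 59.3 and 56.0 at 0 h, 64.2 and 58.3 at 0.25 h, and 52.5 and 50.9 at 0.5 h. They read 82.4 and 85.5 at 1 h, 154 and 203 at 3 h, 266 and 221 at 4 h, and 448 and 446 at 6 h. The later arrays read 57.8 and 60.9 at 12 h and 52.2 and 43.3 at 24 h. The arrays at 1, 3, 4 and 6 h lay above all arrays of the other 5 times, each of these 4 times above the one before it, and the arrays at 0.25, 12 and 0 h overlapped in that order of level. The 9 group means spanned 2.99 on the log2 scale, and the change over time passed the test (adjusted p = 1e-14, limma F-test), as it did for 62.6% of all probe sets in shoots. The span was wider than that of 98.4% of probe sets, whose median span in shoots was 0.62.

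Against 0 h, GI in shoots differed by 0.07 at 0.25 h and by -0.13 at 0.5 h, neither past the test, in comparisons that called 14.4% and 5.49% of all probe sets. It was higher by 0.48 ± 0.13 (SE) at 1 h, with adjusted p = 0.016 from limma and 12.2% of probe sets called. The call at 1 h was lost without replicate 2 of 0 h (0.44, adjusted p = 0.081 in limma), without replicate 1 of 1 h (0.50, 0.05) and without replicate 2 of 1 h (0.45, 0.1). At 3, 4 and 6 h it was higher by 1.47, 1.90 and 2.76 (SE 0.13 each), each called, beside 24.8%, 21.5% and 34.6% of probe sets. From 0.5 to 1 h GI rose by 0.61 (adjusted p = 0.0024, limma, 11.3% of probe sets called), and from 4 to 6 h by 0.85 (adjusted p = 1e-04, 6.87% called). From 6 to 12 h it fell by 2.72 ± 0.13 (adjusted p = 7.4e-13, limma), in a comparison that called 19.2% of probe sets. At 12 h it stood 0.04 above 0 h (adjusted p = 0.86, 34.5% called) and at 24 h it differed by -0.23 from 0 h (adjusted p = 0.23, 15.5% called). The 24 h value differed by -0.27 from that of 12 h (adjusted p = 0.13), where 25.8% of probe sets were called.

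In roots GI started from a higher signal, rose over a narrower range and was lowest at the end of the light period. The arrays read 155.7 and 155.5 at 0 h, 194 and 207 at 0.25 h, and 189 and 166 at 0.5 h. They read 215 and 218 at 1 h, 317 and 308 at 3 h, 364 and 332 at 4 h, and 357 and 268 at 6 h. The last arrays read 96.3 and 102 at 12 h and 196 and 228 at 24 h. The 12 h arrays were below all others and the 3, 4 and 6 h arrays above all others. The arrays of 6 h overlapped those of 3 h and those of 4 h. The means spanned 1.71 on the log2 scale, wider than 98.1% of probe sets in roots (median span 0.43), and the change over time passed (adjusted p = 3.3e-08, limma F-test), as it did for 17.6% of all probe sets.

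Against 0 h in roots, GI at 3, 4 and 6 h was higher by 0.96, 1.11 and 0.95 (SE 0.13 each), each called, beside 8.1%, 4.86% and 5.43% of probe sets. It differed by 0.35 at 0.25 h (adjusted p = 0.11, 5.32% called) and by 0.18 at 0.5 h (not called, as 1.63% of probe sets were). At 1 h it was higher by 0.45 (adjusted p = 0.032 in limma, 7.91% called), a call lost when any of the 4 arrays of 0 and 1 h in roots was left out (0.45 to 0.46, adjusted p = 0.11 to 0.15). At 12 h it was lower than at 0 h by -0.60 ± 0.13 (adjusted p = 0.0081 in limma, 3.8% called). This was lost without replicate 2 of 0 h (-0.60, adjusted p = 0.079) or replicate 1 of 12 h (-0.56, adjusted p = 0.099). The 24 h arrays differed by 0.42 from 0 h (adjusted p = 0.094, 2.02% called). Between neighbouring late times GI changed by -0.16 from 4 to 6 h (adjusted p = 0.72, where 0.139% of probe sets were called), fell by 1.55 from 6 to 12 h (adjusted p = 1.2e-07, 2.8% called) and rose by 1.02 from 12 to 24 h (adjusted p = 2.1e-05, 1.96% called). From 0.5 to 1 h the change was 0.28 (adjusted p = 0.3, 1.47% called).

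**Figure D1:**
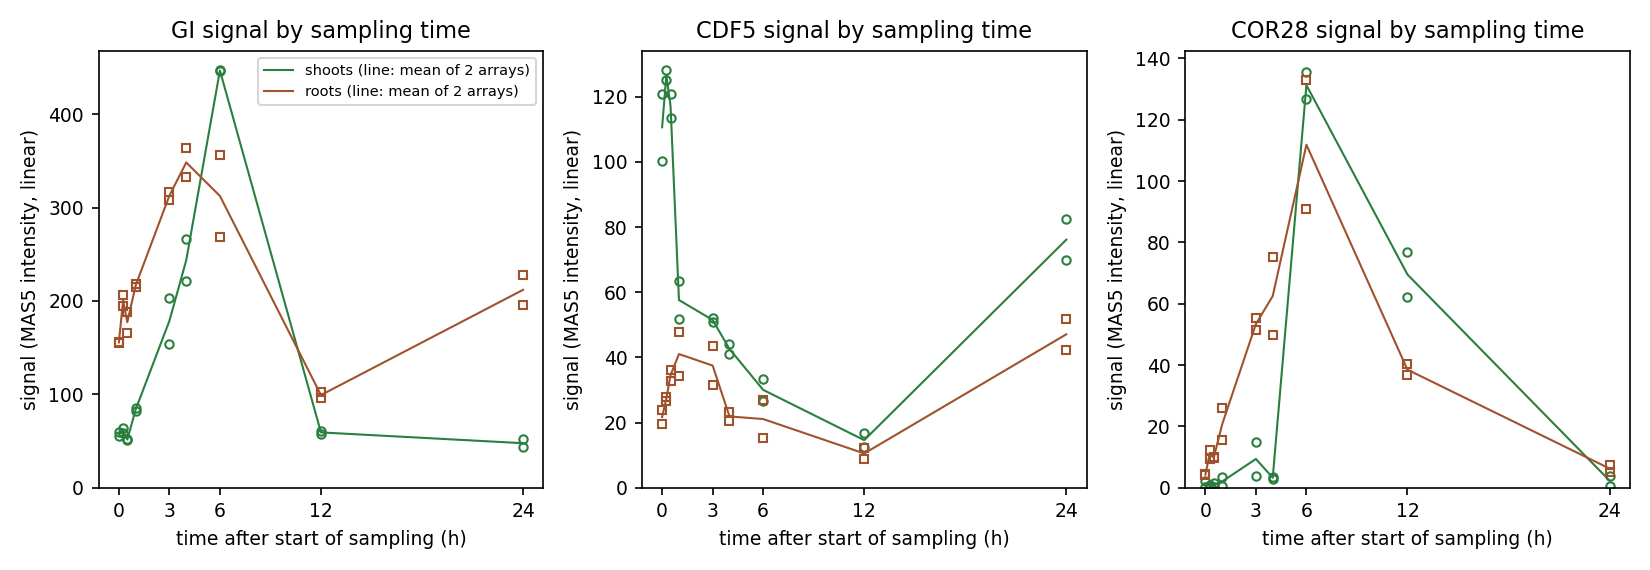
Array signal (linear scale, no unit) of GI, CDF5 and COR28 against hours after the start of sampling. Points are the 2 arrays of a group and lines join the group means for shoots and roots. GI in shoots climbs to 448 and 446 at 6 h, CDF5 is lowest at 12 h in both organs, and COR28 in shoots lies below 15 at every time but 6 and 12 h.

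The courses of GI differed between the organs (adjusted p = 1.5e-08, limma F-test of the time by tissue interaction, which 40.9% of probe sets passed). Over all times the shoot signal was lower by a log2 difference of -1.01 ± 0.04 (adjusted p = 1e-16, limma), in a comparison that called 92.2% of probe sets and had a median of -0.33 over all of them. GI was lower in shoots at 0, 0.25, 0.5, 1, 3, 4, 12 and 24 h, by -1.29, -1.56, -1.60, -1.27, -0.79, -0.50, -0.66 and -1.94. At 6 h it was higher in shoots, by 0.52 ± 0.13 (adjusted p = 0.00091, limma). All 9 of these comparisons passed, beside 77.5%, 76.9%, 76.6%, 72.8%, 76.2%, 75.9% and 77.6% of probe sets at 0, 0.25, 0.5, 1, 3, 4 and 12 h, 78.4% at 24 h and 74.7% at 6 h.

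The rise of GI was larger in shoots than in roots, by 0.79 ± 0.18 from 0 to 4 h (adjusted p = 0.0063 in limma, 9.97% of probe sets called) and by 1.81 ± 0.18 from 0 to 6 h (adjusted p = 1.4e-07, 20.9% called). From 0 to 1 h the difference between the organs was 0.02 (adjusted p = 0.95, 11.1% called). From 12 to 24 h the change in shoots was lower than that in roots by -1.29 ± 0.18 (adjusted p = 2.3e-05, 13.8% called). Between these times, which span the end of the light period, the night and the next morning, GI rose in roots and not detectably in shoots. From 0 to 24 h the difference was -0.65 ± 0.18 (adjusted p = 0.03, 8.19% called). That call was lost without either 0 h array of roots (-0.65 both times), replicate 1 of 0 h in shoots (-0.61), replicate 2 of 24 h in shoots (-0.54) or replicate 2 of 24 h in roots (-0.55), with adjusted p = 0.064 to 0.13 in limma.

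CDF5, the DOF-type repressor of CONSTANS, ran the other way in shoots: it was high at the start, dropped within the first hour and went on falling to the end of the light period. The 2 arrays read 100 and 121 at 0 h, 128 and 125 at 0.25 h, and 113 and 121 at 0.5 h. They read 51.8 and 63.4 at 1 h, 52.1 and 50.9 at 3 h, 44.2 and 41.0 at 4 h, and 33.4 and 26.7 at 6 h. The arrays read 16.7 and 12.5 at 12 h and 82.5 and 69.8 at 24 h. The 0, 0.25 and 0.5 h arrays were all above 100, the 24 h arrays came next and the 12 h arrays were the lowest, while those of 1 and 3 h overlapped. The shares of all probe sets called in each comparison, given above for GI, are the background for CDF5 and COR28 as well. The means spanned 2.48 (adjusted p = 1.2e-10 for change over time, limma F-test), wider than 97.2% of probe sets in shoots.

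Between 0.5 and 1 h CDF5 in shoots fell by 0.92 ± 0.17 (adjusted p = 0.00061, limma), and against 0 h it was lower at 1, 3, 4, 6 and 12 h, by -0.84, -0.97, -1.19, -1.59 and -2.29 (SE 0.17 each), all called. It differed from 0 h by 0.18 at 0.25 h and 0.08 at 0.5 h, neither called. The step from 4 to 6 h was -0.40 (adjusted p = 0.17, limma) and that from 6 to 12 h was -0.70 (adjusted p = 0.0042). The latter was lost without replicate 2 of 12 h (-0.58, adjusted p = 0.067 in limma) or replicate 1 of 6 h (-0.58, 0.062). From 12 to 24 h CDF5 rose by 1.81 ± 0.17 (adjusted p = 1.5e-08, limma), to a level that differed by -0.48 from that of 0 h (adjusted p = 0.051).

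A stress-responsive transcript was high in the same early shoot samples as CDF5. STZ, a zinc finger gene that responds to many stresses, read 233 and 160 in shoots at 0 h, 131 and 272 at 0.25 h, 40.2 and 33.5 at 0.5 h and 18.6 and 21.9 at 24 h. STZ and CDF5 were thus both high at 0 and 0.25 h, but at 0.5 h CDF5 was still at 113 and 121, and at 24 h it was at 82.5 and 69.8. Whether the handling of the plants has a part in the course of CDF5 was not tested.

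In roots CDF5 was weaker and moved less. The arrays read 19.5 and 23.9 at 0 h, 28.0 and 26.6 at 0.25 h, and 36.3 and 32.9 at 0.5 h. They read 47.7 and 34.3 at 1 h, 43.4 and 31.6 at 3 h, 20.6 and 23.2 at 4 h, and 26.9 and 15.3 at 6 h. The arrays read 8.96 and 12.1 at 12 h and 51.9 and 42.3 at 24 h. Many of these signals lay under 40, the level used to select probe sets for the test. The arrays of 0.5, 1 and 3 h overlapped each other, as did those of 4 and 6 h, and both 12 h arrays were below all others. The mean was highest at 24 h, but the 24 h arrays overlapped those of 1 and 3 h. The means spanned 1.47, wider than 97.0% of probe sets in roots, and the change over time passed (adjusted p = 3.4e-05, limma F-test).

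The clearest step of CDF5 in roots was the rise of 1.47 ± 0.17 from 12 to 24 h (adjusted p = 4.7e-06, limma). Against 0 h it was higher by 0.68 at 1 h (adjusted p = 0.016), 0.58 at 3 h (0.035) and 0.85 at 24 h (0.011) and lower by -0.63 at 12 h (0.034). Each of these 4 calls was lost when single arrays were left out. At 1 h these were replicate 1 of 0 h (0.58, adjusted p = 0.13 in limma) and replicate 1 of 1 h (0.49, 0.22). At 3 and 24 h any of the 4 arrays concerned did so, with values of 0.40 to 0.75 at 3 h and 0.73 to 0.97 at 24 h. At 12 h they were replicate 2 of 0 h (-0.53), replicate 1 of 12 h (-0.52) and replicate 2 of 12 h (-0.74). At 0.25, 0.5, 4 and 6 h the differences of 0.24, 0.49, 0.01 and -0.05 did not pass. From 6 to 12 h the difference was -0.58 (adjusted p = 0.06, limma).

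CDF5 was higher in shoots over all times, by 0.90 ± 0.06 (adjusted p = 2.2e-13, limma), against the median of -0.33 over all probe sets. The gap was 1.93, 1.87 and 1.51 at 0, 0.25 and 0.5 h. It narrowed to 0.41, 0.38, 0.72 and 0.39 at 1, 3, 4 and 6 h and was 0.59 at 24 h, and these 8 comparisons all passed. At 12 h it was 0.26 (adjusted p = 0.16, limma). The calls at 1, 3 and 6 h were lost without single arrays: at 1 h without replicate 2 of shoots (0.29) or of roots (0.22), at 3 h without replicate 1 (0.37) or 2 (0.40) of shoots or replicate 2 of roots (0.20), and at 6 h without replicate 1 of shoots (0.27) or replicate 2 of roots (0.11).

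The courses of CDF5 differed between the organs (adjusted p = 3.5e-06, limma F-test). Relative to 0 h the change in shoots was lower than that in roots by -1.51 ± 0.23 at 1 h (adjusted p = 0.00026, limma), -1.20 at 4 h (0.0019), -1.54 at 6 h (5e-05) and -1.33 at 24 h (0.002). Within the first hour the shoot arrays had dropped from 100 and 121 to 51.8 and 63.4, while the root arrays stood at 19.5 and 23.9 and then at 47.7 and 34.3. From 12 to 24 h the change was positive in both organs and their difference was 0.33 (adjusted p = 0.41, limma).

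COR28, which acts on evening-phased clock genes, was near the floor of the array in shoots until 4 h and then appeared between 4 and 6 h. The 2 arrays read 0.364 and 2.35 at 0 h, 0.738 and 1.02 at 0.25 h, and 0.213 and 1.73 at 0.5 h. They read 3.46 and 0.695 at 1 h, 4.02 and 14.8 at 3 h, 2.91 and 3.67 at 4 h, and 127 and 136 at 6 h. The arrays read 62.1 and 77.01 at 12 h and 0.720 and 4.02 at 24 h. Only the 6 and 12 h arrays were above 15, and the low groups from 4, 24, 1, 0, 0.5 to 0.25 h overlapped and have no order. The means spanned 3.70 (adjusted p = 2.2e-12 for change over time, limma F-test), wider than 99.3% of probe sets in shoots. COR28 reached the filter level of 40 only at 6 and 12 h in shoots and between 3 and 12 h in roots. It was thus kept for the test through the times at which it was high, and its test and span rank in either organ are not independent of that.

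COR28 in shoots rose by 3.41 ± 0.22 from 4 to 6 h (adjusted p = 6.5e-10, limma) and stood 3.64 ± 0.22 above 0 h at 6 h and 2.81 ± 0.22 above it at 12 h. Because the early signals lie below the added 10, the size of these differences is set by it: the value at 6 h was 7.15 with nothing added and 1.82 with 50 added, called both times. From 12 to 24 h it fell by 2.69 ± 0.22 (adjusted p = 2.4e-09, limma), to 0.12 above 0 h, which did not pass. The change from 6 to 12 h was -0.83 (adjusted p = 0.0097, limma), a call lost without replicate 2 of 6 h (-0.79, 0.074) or replicate 1 of 12 h (-0.70, 0.11). At 3 h it was 0.72 above 0 h (adjusted p = 0.02, limma), which rests on 1 array at 14.8: without that replicate 2 of 3 h the value was 0.31 (adjusted p = 0.38), and without replicate 1 of 0 h it was 0.59 (0.15). At 0.25, 0.5, 1 and 4 h the differences from 0 h were -0.06, -0.05, 0.09 and 0.23, none called.

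In roots COR28 climbed from the first hour on, so that it was already well up when it was still at the floor in shoots. The arrays read 4.55 and 4.04 at 0 h, 12.3 and 9.49 at 0.25 h, and 9.75 and 10.03 at 0.5 h. They read 26.1 and 15.5 at 1 h, 55.3 and 51.5 at 3 h, 49.8 and 75.2 at 4 h, and 133 and 90.9 at 6 h. The arrays read 36.7 and 40.4 at 12 h and 5.12 and 7.46 at 24 h. The 6 h arrays were above all others, those of 3 and 4 h overlapped, and the 0 h arrays were the lowest. The means spanned 3.07, wider than 99.8% of probe sets in roots, and the change over time passed (adjusted p = 2.9e-09, limma F-test).

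Against 0 h in roots, COR28 was higher by 1.08 ± 0.22 at 1 h (adjusted p = 0.0048, limma), and by 2.15, 2.32, 3.07 and 1.76 (SE 0.22 each) at 3, 4, 6 and 12 h, all called. The call at 1 h was lost without replicate 1 of 1 h (0.83, adjusted p = 0.12 in limma), and with nothing added before the log those at 1 h (2.23, 0.14) and 12 h (3.17, 0.059) were lost. The differences of 0.55 at 0.25 h (adjusted p = 0.15) and 0.48 at 0.5 h (0.29) did not pass. From 4 to 6 h the change was 0.75 (adjusted p = 0.22, limma), from 6 to 12 h COR28 fell by 1.31 (0.0024) and from 12 to 24 h by 1.58 (1e-04), and at 24 h it stood 0.19 above 0 h (0.74). With nothing added before the log, the value at 6 h was 4.68 and with 50 added it was 1.56, called both times.

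The organs parted most for COR28 at 4 h. Shoots were then lower than roots by -2.43 ± 0.22 (adjusted p = 1.2e-09, limma), with 2.91 and 3.67 against 49.8 and 75.2, and at 6 h the difference was 0.23 (adjusted p = 0.34). The added 10 sets the size of differences against shoot signals this low: at 4 h it was -4.23 with nothing added and -1.07 with 50 added, called both times. At 0.25, 0.5, 1 and 3 h shoots were lower by -0.94, -0.86, -1.34 and -1.76, all called, while the differences of -0.34 at 0 h and -0.41 at 24 h did not pass. With 50 added the call at 0.5 h was lost (-0.23, adjusted p = 0.053 in limma), and with nothing added the difference at 0 h passed (-2.21, 0.033). At 12 h shoots were higher by 0.71 (adjusted p = 0.0062, limma), a call lost without replicate 2 of 12 h in shoots (0.57, 0.066) and with nothing added (0.85, 0.4). Over all times the difference was -0.79 ± 0.07 (adjusted p = 5.2e-10, limma), with -2.37 and -0.26 as the values with nothing and with 50 added. When each array was centred on its median, the shoot to root differences over all times were -0.86 for GI, 1.05 for CDF5 and -0.64 for COR28, all called, and the median over all probe sets was -0.18.

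The courses of COR28 differed between the organs (adjusted p = 1.2e-06, limma F-test). The change from 0 h in shoots was lower than that in roots by -2.09 ± 0.31 at 4 h (adjusted p = 0.00015, limma), while at 6 h the difference was 0.57 (0.21) and at 24 h -0.07 (0.92). At 1 h it was -0.999 (adjusted p = 0.042, limma). That call was lost without replicate 2 of 0 h (-0.87) or of 1 h (-0.83) in shoots, without replicate 1 (-1.02) or 2 (-0.97) of 0 h in roots, and without replicate 1 of 1 h in roots (-0.75). From 12 to 24 h the difference was -1.11 (adjusted p = 0.019, limma), lost without replicate 2 of 12 h (-0.98) or replicate 1 of 24 h (-0.92) in shoots, and without replicate 1 of 12 h (-1.06) or replicate 2 of 24 h (-1.01) in roots.

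**Figure D2:**
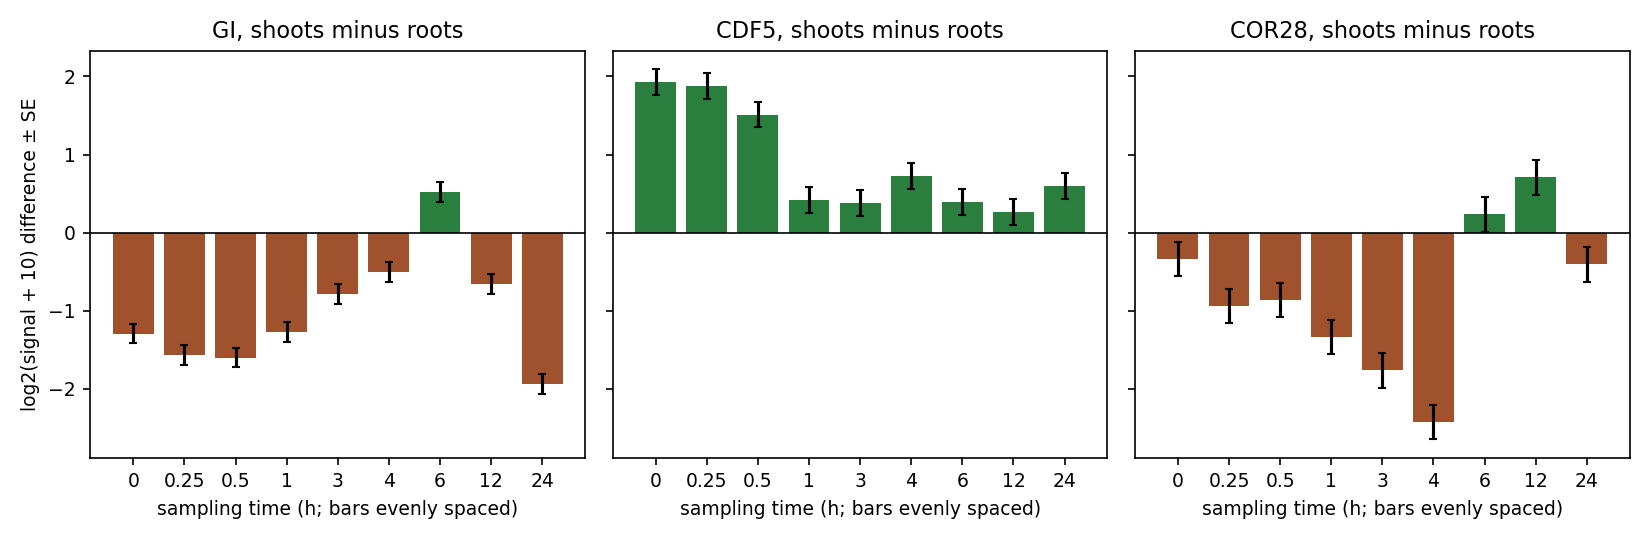
Difference of log2(signal + 10) between shoots and roots for GI, CDF5 and COR28 at each of the 9 times, with bars of 1 SE from the limma fit. GI crosses from -0.50 at 4 h to 0.52 at 6 h, CDF5 drops from 1.51 at 0.5 h to 0.41 at 1 h, and COR28 is lowest at 4 h with -2.43.

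Each gene was then placed within its own range, from 0% at its lowest to 100% at its highest group mean on the log2 scale, because signals of different probe sets cannot be compared. In shoots GI had reached 56.9% of its range at 3 h and 71.4% at 4 h, and COR28 21.0% and 7.79%, before both stood at 100% at 6 h. The low end of the COR28 range lies below the added 10 and its 3 h value rests on 1 array: with nothing added it stood at 47.3% and 31.3% at 3 and 4 h, and with 50 added at 11.9% and 3.64%. At 12 h GI was at 8.93% and COR28 still at 77.4%. In roots COR28 was at 70.0% at 3 h and 75.6% at 4 h, and GI at 91.3% and 100%. CDF5 was at its lowest at 12 h in both organs, a time at which 18.1% of the probe sets that changed in shoots and 15.2% of those that changed in roots were lowest. GI and COR28 in shoots shared their highest time, 6 h, with 15.9% of the probe sets that changed there. In roots, 8.54% of the probe sets that changed were highest at 4 h, as the mean of GI was, and 10.1% at 6 h, as COR28 was. The GI arrays of 4 and 6 h in roots overlapped, so its highest time there is not resolved between them.

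Over the 9 group means, which come from the same arrays for all 3 genes, CDF5 and COR28 ran against each other in shoots (Pearson r = -0.80) and less so in roots (-0.39). GI and COR28 gave 0.53 in shoots and 0.52 in roots, and GI and CDF5 gave -0.48 in shoots and 0.41 in roots. Between the organs the course of GI gave 0.77, that of COR28 0.72 and that of CDF5 0.58. These values describe 9 points each and carry no test.

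**Figure D3:**
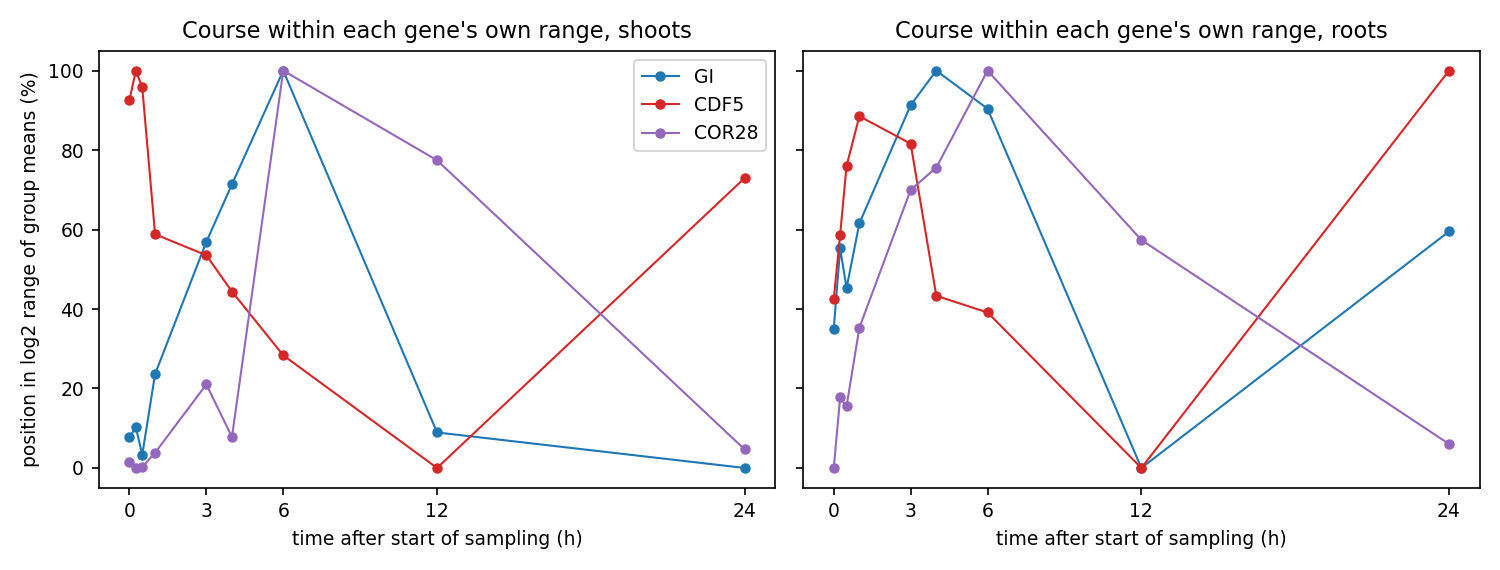
Position of GI, CDF5 and COR28 within each gene's own log2 range (percent, 0 at the lowest and 100 at the highest group mean) against hours after the start of sampling, for shoots and roots. At 4 h COR28 lies at 7.79% in shoots (31.3% with nothing added before the log) and 75.6% in roots, and at 12 h CDF5 lies at 0% in both organs.

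The control probe set for 25S ribosomal RNA also changed through the day. Its signal in shoots was 990 ± 60.3 and 2171 ± 156 at 0 and 0.25 h, and 1415 ± 26.0 and 1880 ± 714 at 0.5 and 1 h (SD, n = 2 each). It was 2306 ± 329, 2423 ± 38.1 and 2536 ± 181 at 3, 4 and 6 h, and 1475 ± 64.6 and 955 ± 199 at 12 and 24 h. Like GI in shoots it was highest at 6 h and low at 12 and 24 h. It was also up at 0.25 h, where GI differed from 0 h by 0.07. In roots it was highest at 0.25 h (2589 ± 57.6), and the mean of GI was highest at 4 h. Whether the courses of GI, CDF5 and COR28 share a cause with the 25S signal was not tested. With that signal of each array as a covariate, all changes over time remained called: GI had adjusted p = 3.3e-11 in shoots and 5e-07 in roots, CDF5 8.5e-10 and 1e-04, and COR28 2.4e-11 and 1.8e-08 (limma). Calls against 0 h lost with it were those of GI at 1 h in shoots (0.33) and roots (0.31), of CDF5 in roots at 1 h (0.50), 3 h (0.38) and 24 h (0.73), and of COR28 at 3 h in shoots (1) and 1 h in roots (1.28).

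Other genes of the clock, of day length, of light signalling and of the cold response were read from 7 lists. Of 134 listed genes, 16 could be named from the probe table and 14 had enough signal, so the lists were read in small part. None of the genes listed under the evening clock or under day length and flowering could be named, so the targets of GI and CDF5 were not analysed here. Of the 14 genes, 10 changed over time in shoots, 6 in roots and 7 differed in course between the organs, beside 62.6%, 17.6% and 40.9% of all probe sets. Their median span was 1.46 in shoots and 0.72 in roots, against 0.62 and 0.43 over all probe sets. The count of 6 in roots was 3 without either root array of 1 h.

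In shoots COR27, the relative of COR28, was high at the same times. The COR27 arrays in shoots read 1.34 and 8.68 at 4 h, 109 and 140 at 6 h, 106 and 102 at 12 h, and 0.532 and 4.36 at 24 h. COR27 thus rose in shoots between the same times as COR28, by 3.20 from 4 to 6 h (adjusted p = 3.4e-08, limma), and fell by 3.21 from 12 to 24 h. In roots COR27 read 8.45 and 13.4 at 4 h, 35.7 and 37.7 at 6 h and 12.7 and 12.4 at 12 h, and its difference between 4 and 6 h was 1.17 (adjusted p = 0.098). At 3 h in roots COR27 differed from 0 h by 0.59 (adjusted p = 0.2, limma), a time at which COR28 had risen there by 2.15. The early signals of both genes lie below the added 10, which sets the size of these values.

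The cold response list held 6 genes with enough signal, all of which changed in shoots and 3 of which changed in roots, beside 62.6% and 17.6% of all probe sets. The root call of COR47 was lost in roots alone (adjusted p = 0.09, limma) and without replicate 1 (0.1) or 2 (0.069) of 1 h. COR15A and COR15B, which encode chloroplast proteins that protect membranes in the cold, and COR47 and LTI30, which encode dehydrins, had their highest mean in shoots at 6 h, as did COR27 and COR28. For COR27 and COR15A the 12 h means were close: 3.18 and 2.48 above 0 h, beside 3.41 and 3.14 at 6 h (SE 0.27 and 0.40). The 6 and 12 h samples of the listed genes were not compared by a test. STZ, the remaining gene of this list, went the other way in shoots. Its mean was highest at 0 h, and at 6 h it was lower than at 0 h by -2.79 (adjusted p = 0.00024, limma). COR15B read 26.9 and 24.6 in shoots at 0 h and 1006 and 849 at 6 h. In roots COR15B stayed between 8.91 and 17.9 (adjusted p = 0.996 for change over time, limma), while COR28 changed there.

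Among the light signalling genes, HYH, a bZIP factor related to HY5, was low in shoots when GI was high. HYH read 222 and 197 at 0 h, 81.0 and 78.5 at 0.25 h, 43.6 and 26.2 at 4 h, and 14.5 and 20.4 at 6 h. It read 45.5 and 53.2 at 12 h and 170 and 166 at 24 h. The courses did not mirror each other throughout: HYH had fallen by 1.29 at 0.25 h (adjusted p = 0.00012, limma) and was still lower than at 0 h by -1.89 at 12 h (4.5e-08), where GI differed from 0 h by 0.07 and 0.04. It was lower at 6 h than at 0 h by -3.01 in shoots and by -0.82 in roots (adjusted p = 1.5e-11 and 0.011, limma). The lowest mean of HYH and the highest of GI and COR28 in shoots thus fell at the same time.

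The clock-associated genes TIC, FIO1, XCT and SPY moved less than the 3 genes. Their spans were 0.23 to 0.64 in shoots and 0.33 to 0.66 in roots. TIC changed in shoots (adjusted p = 4.7e-05, limma), and FIO1 and XCT passed in neither organ. In roots TIC passed at adjusted p = 0.045 (limma), a call lost in 20 of 30 alternatives, among them leaving out any root array of 0, 1, 3, 4, 12 or 24 h or replicate 1 of 0.25 or 0.5 h (adjusted p = 0.051 to 0.22). SPY passed in roots (adjusted p = 0.024, limma), a call lost in roots alone (0.075) and without replicate 1 (0.077) or 2 (0.076) of 1 h or replicate 1 of 12 h (0.051). Of the listed DOF factors beside CDF5, AT2G34140 and AT1G29160 had enough signal. AT1G29160 passed for change over time in shoots (adjusted p = 0.014, limma), a call lost with 50 added (0.11), in shoots alone (0.052) and without replicate 2 of 0.25 h (0.052) or of 12 h (0.084). AT2G34140 in roots had adjusted p = 0.051 (limma) and passed in 12 of 30 alternatives. Both were higher in roots, by a log2 difference of shoots to roots of -2.95 and -2.03, where CDF5 was higher in shoots. AT2G34140 was at the floor in shoots (1.17 to 6.37), so the added 10 sets that size, with -5.25 for nothing and -1.38 for 50 added. AT5G52660, of the morning clock list, had a span of 0.54 in shoots (adjusted p = 0.0039) and 0.36 in roots (0.2).

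**Figure D4:**
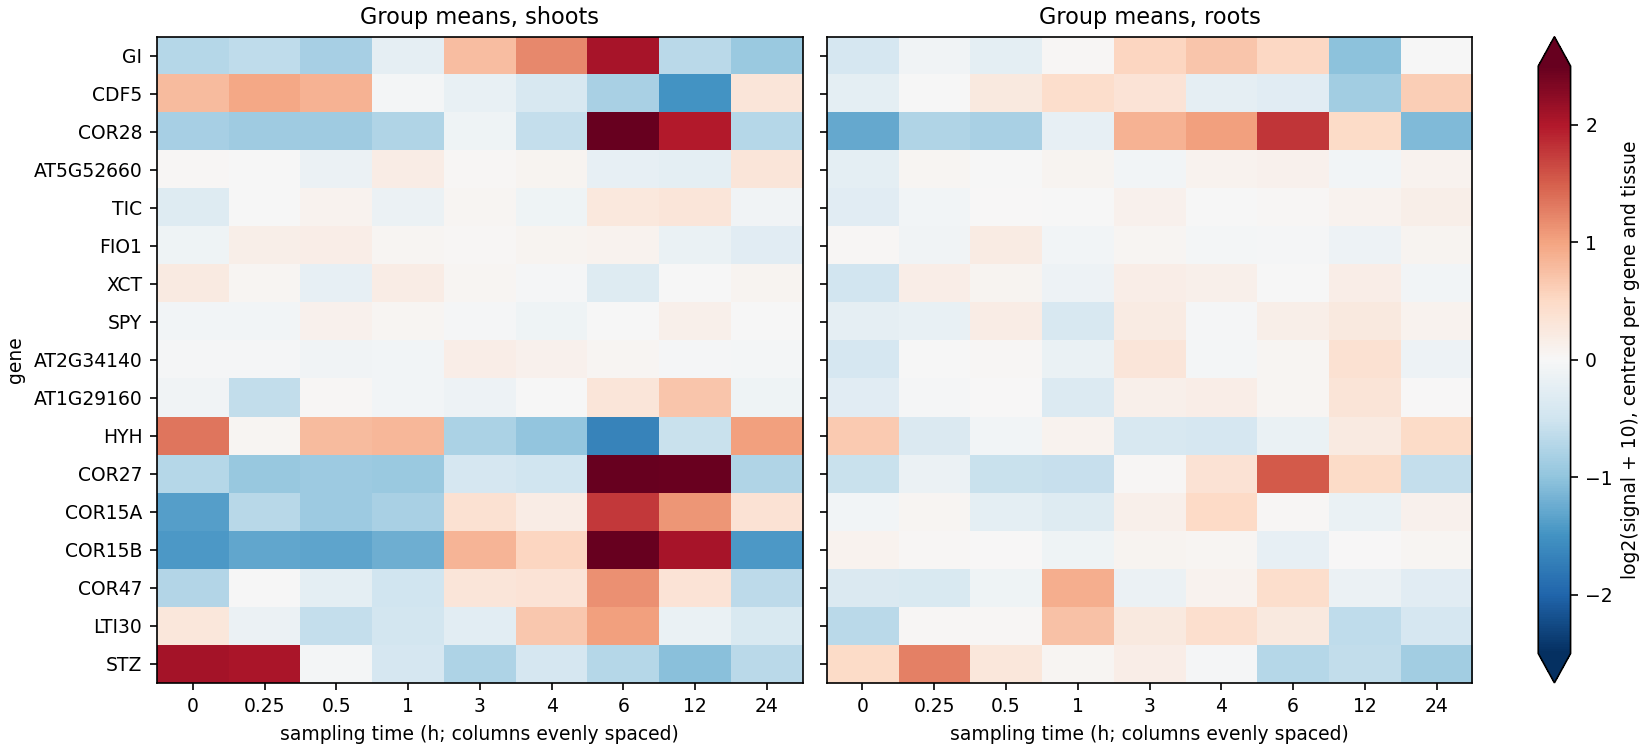
Group means of log2(signal + 10), centred per gene and organ, for GI, CDF5, COR28 and the 14 listed genes with enough signal at 9 times in shoots and roots (columns evenly spaced, red high and blue low). COR27, COR15A, COR15B, COR47 and LTI30 have their highest mean in shoots at 6 h, as do GI and COR28, and HYH has its lowest there. STZ, also of the cold response list, is highest in shoots at 0 h.

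The probe sets whose course was most like that of each gene were ranked by Pearson correlation over the 9 group means. Candidates were those with 1 gene and a span of at least 1 (1640 in shoots and 589 in roots). Highest or lowest times that they share with GI, CDF5 or COR28 follow largely from this ranking and are given as description. For GI in shoots these were HEME1, which encodes an enzyme of tetrapyrrole synthesis (r = 0.981), AT1G70420, AT1G20030, AT4G26130 and AT4G23820, all highest at 6 h. AT1G20030 went from 1.95 at 0 h to 147 at 6 h and AT1G70420 from 14.8 at 0.5 h to 111 at 6 h. In roots the course of GI was best matched by AT5G24490, AT5G61590 (r = 0.882), AT3G15450, AT3G07310 and AT1G60750. The first 4 of these were lowest at 12 h, as GI was.

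For CDF5 in shoots the closest were AT1G18460 (r = 0.966), AT5G54300, NAI1, a bHLH factor of endoplasmic reticulum body formation, UGT76C2, which encodes a cytokinin glucosyltransferase, and AT3G54510, all lowest at 12 h. AT1G18460 went from 439 at 0.5 h to 96.8 at 12 h. In roots they were AT2G37440 (0.905), AT2G36950, AT5G48540, AT3G16800 and AILP1, again all lowest at 12 h. AT3G16800 was highest at 24 h, with 455 against 75.0 at 12 h. The mean of CDF5 was also highest at 24 h, where its arrays overlapped those of 1 and 3 h.

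For COR28 in shoots the closest of all 1640 was COR27 (r = 0.989), followed by AT1G17665, AT1G07050, AT1G48330 and AT3G04550, all highest at 6 h. AT1G07050 went from 5.57 at 0.25 h to 419 at 6 h. In roots they were AT2G16365 (0.953), AT1G56300, AT1G11210, AT1G13930 and AT3G04550 (0.912), of which AT3G04550 was among the 5 closest in both organs. A correlation above 0.9 was reached by 1.77% of the 1640 candidates for GI in shoots, 2.13% for CDF5 and 2.44% for COR28. Of the 589 candidates in roots, 0.17% reached it for GI and for CDF5 and 1.02% for COR28.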

How the data were processed

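Transcripts of Arabidopsis shoots and roots were measured on 36 Affymetrix ATH1 arrays, 2 for each of 18 groups. The deposited values are 1 intensity for each probe set and array. The authors used MAS5 per the submitters' processing notes (version not given in the sources used here). On each array the mean without the extreme 2% at either end is 100. No further scaling was applied.

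Control probe sets were set aside, log2(signal + 10) was taken, and a probe set needed a signal of 40 or more on 2 or more arrays, which 15091 of 22746 had. In R 4.3.3, limma 3.58.1 fitted the 18 group means over all arrays, with 18 residual and 4.06 prior degrees of freedom and p-values adjusted over all kept probe sets (Benjamini-Hochberg). Contrasts were each time against 0 h, neighbouring times, shoots against roots, and the difference of changes between organs; moderated F-tests covered the courses. The share called among all probe sets is given where each comparison is first used. Replicate numbers did not pair arrays: deviations of same-numbered shoot and root arrays correlated at -0.115 to 0.05.

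Gene names come from the probe table and the reference table of assembly TAIR10.1, used for names only. 13513 probe sets had 1 gene, 8117 of them kept. Listed genes that the table could name were all read, and for each gene and organ the 5 most similar courses are named. The 3 genes and the lists were chosen with earlier results of these data known. From the lists 1 wrong symbol was dropped, which left 134 genes. Promoter motifs were not analysed here. Alternatives covered the pseudocount, filter, normalization, centring, prior, single-organ fits, replicate block and leaving out each array; the 25S rRNA covariate was used as well. The difference of single changes between organs and the counts of listed genes were added after the data were seen. The procedure was tested on simulated data.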

Additional observations from a re-analysis of the deposited data

Results flagged for a closer look

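The courses of all 3 genes differed between shoots and roots in a test of the difference itself, with adjusted p = 1.5e-08 for GI, 3.5e-06 for CDF5 and 1.2e-06 for COR28 (limma). Single changes also differed, each given as the change in shoots minus that in roots on the log2 scale. From 0 to 1 h these were -1.51 for CDF5 and -1 for COR28. From 0 to 4 h they were 0.79 for GI, -1.20 for CDF5 and -2.09 for COR28. From 0 to 6 h they were 1.81 for GI and -1.54 for CDF5. From 0 to 24 h they were -0.65 for GI and -1.33 for CDF5. From 12 to 24 h they were -1.29 for GI and -1.11 for COR28. Not all of these calls were stable. Those of GI from 0 to 24 h and of COR28 from 0 to 1 h and from 12 to 24 h were lost without single arrays. All calls of COR28 in this list of single changes were lost with nothing added before the log.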

How the results depend on the processing

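Under 13 other settings and with each of the 36 arrays left out, the changes over time of GI, CDF5 and COR28 in both organs, the differences of their courses and the shoot to root differences over all times stayed called wherever the gene was tested, and no value reversed. COR28 had too little signal for the stricter filter. Of 149 further values (single times and listed genes) 36 changed their side of the threshold in at least 1 fit. Of the other 57 results, which include the stable ones above, 45 stayed the same in every fit. Those that did not are among the values given below. With nothing added before the log, the calls of COR28 lost included those from 6 to 12 h in shoots (-0.92) and roots (-1.51), from 12 to 24 h in roots (-2.64), and between organs for 0 to 1 h (-1.48), 0 to 4 h (-2.01) and 12 to 24 h (-2.71), while CDF5 gained that from 6 to 12 h in roots (-0.96). The difference of COR28 between organs for 0 to 1 h was also lost with 50 added (-0.36), without the filter (-1) and with a trend and robust prior (-1). CDF5 at 24 against 0 h in shoots was called with 50 added (-0.35), in shoots alone, with the stricter filter and with the replicate block (-0.48 each, adjusted p = 0.047 in limma with the block), and CDF5 from 6 to 12 h in roots with the stricter filter (-0.58). The block changed no other call of the 3 genes. Of the listed genes, TIC in roots was lost with a fixed block (adjusted p = 0.052 in limma). AT2G34140 in roots passed with a random block (0.049). CDF5 at 24 against 0 h in roots was lost in roots alone (0.85). With the 25S rRNA covariate, beside the single times given in the report and CDF5 between organs at 6 h (0.30), the losses were CDF5 at 24 against 0 h in roots (0.73), CDF5 from 6 to 12 h in shoots (-0.54) and the GI difference between organs for 0 to 24 h (-0.55). The listed genes called in roots were 3 in roots alone. With single arrays left out, ranges were -0.85 to -0.30 for CDF5 from 6 to 12 h in roots, -0.83 to -0.58 in shoots, 0.73 to 0.97 for CDF5 at 24 against 0 h in roots, -0.97 to -0.70 for COR28 from 6 to 12 h in shoots, 3 to 7 for the listed genes in roots, and, between organs, -0.76 to -0.54 for GI from 0 to 24 h, -1.25 to -0.75 for COR28 from 0 to 1 h and -1.31 to -0.92 for COR28 from 12 to 24 h. The causes were not tested. Called probe sets numbered 7085 to 9956 in shoots (9447 in the report), 1835 to 3566 in roots (2658) and 5034 to 6704 for the difference of courses (6172). Signals near the floor limit COR28 in shoots before 6 h and CDF5 at 12 h.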
